A study of Mus musculus with 4 samples.

Results

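The genes described here are 40 genes of protein folding and quality control in the endoplasmic reticulum (ER). They comprise chaperones and co-chaperones, lectins and enzymes of the calnexin cycle, disulfide isomerases, oxidases, prolyl isomerases, and the machinery of ER-associated degradation (ERAD). They were chosen by function, as genes whose symbol in the platform's probe table matched the list, out of 18193 genes that a probe set named alone. All 40 matched, through 86 probe sets, and all 40 were among the 12645 genes bright enough to be tested. Ero1l, Ero1lb and Ufd1l carry their later symbols Ero1a, Ero1b and Ufd1 on the platform.

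RNA came from IgA-positive cells of the small intestine of untreated female Balb/c mice aged 9 weeks, called WT in the sample titles. The cells were separated into a fraction with CD11b on the surface and one without it, and 2 samples of each were hybridised, 1 array per sample. The label protocols name 2 labelling kits: replicate 1 of each fraction was labelled from 1 µg of RNA (One-Cycle kit) and replicate 2 from 0.1 µg (3' IVT Express kit), so each kit holds 1 array of each fraction. Nothing in the labels tells how many animals or sorts lie behind the samples. Without a term for the kit, p-values here reflect how far the samples of a fraction differ. With the kit as a block, they reflect how far the difference between the fractions varies between the kits. In both fits this spread is moderated toward that of genes of like signal, and it may be technical. With 4 arrays the precision of every value is limited.

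Plasma cells secrete large amounts of antibody, and each chain is folded in the ER before it leaves the cell. Chaperones of the Hsp70 and Hsp90 families hold unfolded chains, calnexin and calreticulin bind chains through their sugars, disulfide isomerases pair the cysteines, and Ero1 oxidases recharge the isomerases. Chains that fail are trimmed by mannosidases, handed to the Sel1l-Syvn1 ubiquitin ligase in the ER membrane and pulled into the cytosol by the ATPase Vcp for degradation. The unfolded protein response adjusts this machinery through the sensors Ern1, Atf6 and Eif2ak3, and Xbp1 and Atf6 act on promoters through short elements, the ER stress response elements ERSE and ERSE-II and the unfolded protein response element (UPRE).

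The promoters of these genes are shown because those elements are a sequence feature that some of the genes have in common. RefSeq promoter windows of 300 bases (250 before to 50 after an annotated start, build GRCm38.p6) were found for 35 of the 40 genes; Hyou1, Sil1, Manf, Erp29 and Derl1 had no window. Exact matches on either strand were sought for 3 motifs: ERSE (CCAAT, any 9 bases, then CCACG), ERSE-II (ATTGG, any 1 base, then CCACG) and the UPRE core (TGACGTGG), of which ERSE and ERSE-II both hold CCACG and can overlap. The motifs were chosen as known elements of this response, so the shares that follow describe sequence and are not a test. ERSE was found in 9 of the 35 genes (25.7%), against 37 of 27025 genes in the table (0.137%), those 9 included. ERSE-II was found in 2 (5.71%, against 0.0444%) and the UPRE core in 3 (8.57%, against 0.714%). The stretches below run 5′ to 3′ on the strand of the gene and end at or before the start, with the motif in capitals; CGTGG at the left end of the capitals marks an ERSE that lies on the opposite strand.
Hsp90b1, ERSE, GRCm38.p6 chr10:86705577-86705676, minus strand: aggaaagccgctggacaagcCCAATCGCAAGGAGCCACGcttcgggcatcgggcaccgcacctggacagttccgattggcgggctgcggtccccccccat
Calr, ERSE, GRCm38.p6 chr8:84847014-84847113, minus strand: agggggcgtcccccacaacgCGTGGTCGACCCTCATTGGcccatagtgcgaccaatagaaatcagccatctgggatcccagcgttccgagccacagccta
Canx, ERSE, GRCm38.p6 chr11:50325739-50325838, minus strand: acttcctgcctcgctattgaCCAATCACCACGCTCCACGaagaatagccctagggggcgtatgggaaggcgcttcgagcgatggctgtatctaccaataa
Pdia6, ERSE, GRCm38.p6 chr12:17266471-17266570, plus strand: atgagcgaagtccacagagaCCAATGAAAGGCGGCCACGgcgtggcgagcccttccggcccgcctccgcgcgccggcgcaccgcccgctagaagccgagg
Ero1b, ERSE, GRCm38.p6 chr13:12565662-12565761, plus strand: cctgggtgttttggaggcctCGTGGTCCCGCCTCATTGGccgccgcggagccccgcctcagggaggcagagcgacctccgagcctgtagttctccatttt
Derl3, ERSE, GRCm38.p6 chr10:75893222-75893321, plus strand: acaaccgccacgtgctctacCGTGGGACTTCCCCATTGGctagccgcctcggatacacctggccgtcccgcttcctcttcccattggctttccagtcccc
Syvn1, ERSE, GRCm38.p6 chr19:6046476-6046575, plus strand: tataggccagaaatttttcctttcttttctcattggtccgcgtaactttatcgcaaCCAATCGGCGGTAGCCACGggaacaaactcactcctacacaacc
Herpud1, ERSE-II, GRCm38.p6 chr8:94386329-94386428, plus strand: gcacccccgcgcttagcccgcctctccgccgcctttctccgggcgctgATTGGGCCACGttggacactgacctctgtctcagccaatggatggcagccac
Hsp90b1 held a second ERSE nearer its start, and Creld2 and Dnajc3 held 1 each. Dnajb11 held an ERSE-II just after its start, and Txndc5, Txndc11 and Vcp held the UPRE core. By role, a motif was found in 4 of 7 chaperones and co-chaperones with a window, 2 of 4 calnexin-cycle genes, 3 of 7 disulfide isomerases, 1 of 3 oxidases, 0 of 3 prolyl isomerases and 4 of 11 ERAD genes. A match describes these letters and is not evidence that a factor binds there.

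Most of the 40 genes lay near the top of the signal range on every array. Signals were ranked among the 45037 non-control probe sets of an array, rank 1 being the brightest, which needs no scaling between arrays; a rank also reflects how well a probe set hybridises, so ranks do not order the genes by transcript number. The probe sets used for 10 genes lay in the top 1% on all 4 arrays, for 30 in the top 5% and for 35 in the top 10%. Those percentages are of all probe sets, while each gene is represented here by its brightest one. How many of all genes tested lay in the same bands was not counted. The median over the 40 of the mean rank was 519.9 with the brightest probe set and 3330 with all probe sets of a gene averaged. The median rank was 539.5 and 465.5 without CD11b and 607 and 475.5 with it. Txndc5 ranked between 21 and 52, Hsp90b1 between 22 and 74, and Calr between 43 and 150. At the other end Pdia5 ranked between 13336 and 18601, Uggt1 between 4694 and 9291 and Nploc4 between 4516 and 5848. Hspa5, the ER Hsp70 chaperone BiP, which is not one of the 40, ranked between 26 and 91.

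**Figure D1:**
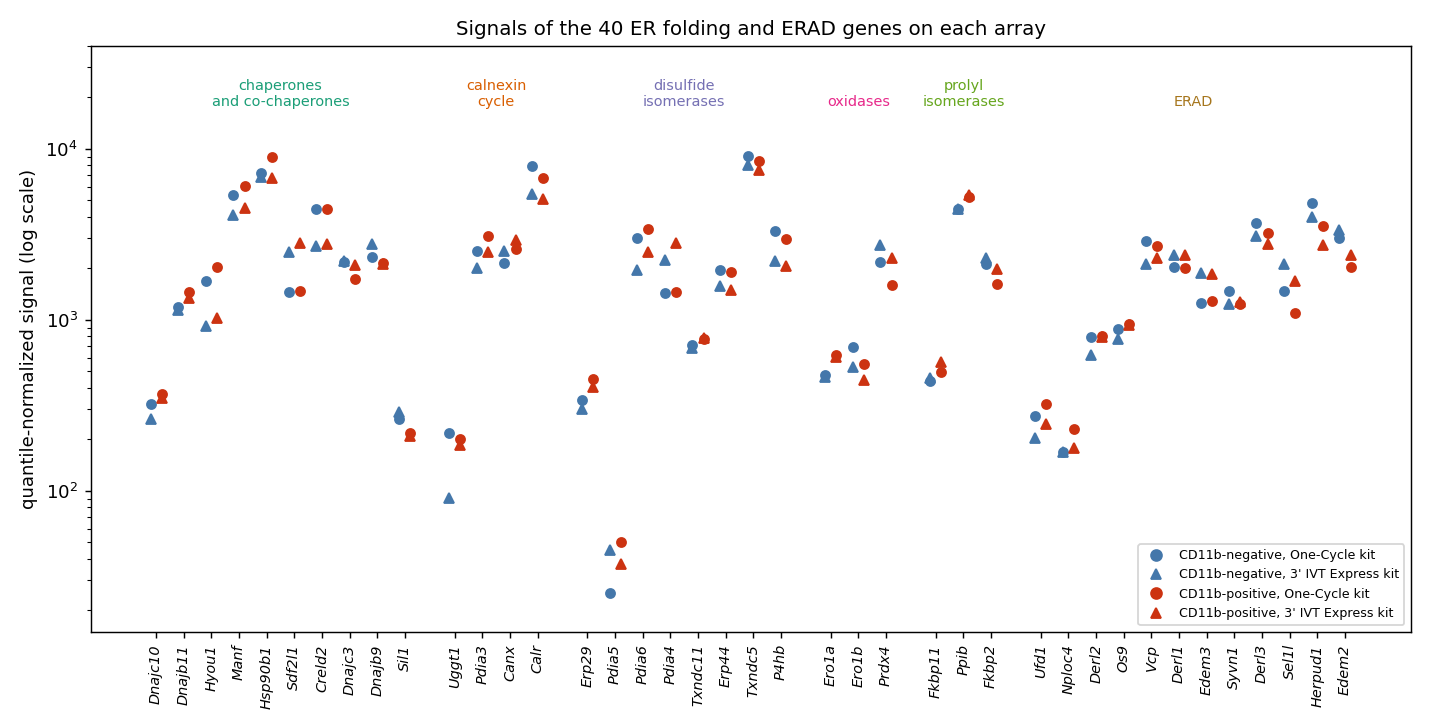
Quantile-normalized signal (log scale, vertical axis) of the probe set used for each of the 40 genes, ordered by role and, within a role, by the difference between the fractions. Blue marks CD11b-negative and red CD11b-positive arrays, circles the One-Cycle and triangles the 3' IVT Express kit, 1 array each. Blue and red points lie close together for most genes. The arrays of the fractions overlapped for 24 of the 40 (60%), and for 8154 of all 12645 genes tested.

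The comparison asks how the CD11b-positive and CD11b-negative cells differ in this machinery. Differences were small, for the 40 genes as for all genes tested: the median absolute log2 difference was 0.2432 and 0.2385. The log2 difference, CD11b-positive minus CD11b-negative, ran from -0.53 to 0.43 over the 40. Of the 40 genes 0 reached 2-fold in either direction, where 610 of all 12645 did. The median of the signed difference was 0.12 (quartiles -0.16 and 0.25), against 0.0027 (quartiles -0.24 and 0.23) over all genes tested. Within the kits the median over the 40 was 0.0040 and 0.061. With limma across all 12645 genes and no term for the kit, 0 of the 40 passed an adjusted p of 0.05 in either direction, and neither did any other gene (0%); the smallest adjusted p among the 40 was 0.610. At an unadjusted p under 0.05, 0 were higher and 2 lower (Edem2 and Herpud1), where 3.14% and 3.52% of all genes were. With the labelling kit as a block, 3 of the 40 (7.5%) were higher, Erp29, Ero1a and Pdia3, and 5 (12.5%) lower, Edem2, Herpud1, Sel1l, Prdx4 and Fkbp2, against 3.73% higher and 4.14% lower of all genes. "Passed" below refers to this blocked fit, in which each gene keeps 1 residual degree of freedom. Its spread is therefore drawn mostly from genes of like signal (prior degrees of freedom 25.6). The summed signal of the 40 genes was 90585 and 83075 with CD11b, against 92142 and 83785 without it. Genes of Paneth and goblet cells, which also secrete protein, had lower summed signals with CD11b (2690 and 1540, against 5899 and 3875 without it). Their part in the differences of the 40 genes was not tested. In bulk samples fewer cells of a type and less RNA per cell cannot be told apart.

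The direction was the same with both kits for 32 genes, of which 18 had the higher signal in the CD11b-positive array (45%, against 31.6% of all genes) and 14 the lower one (35%, against 30.5%). Both CD11b-positive arrays lay above both CD11b-negative arrays for 10 genes (25%, against 18.3%) and below them for 6 (15%, against 17.3%). The difference between the kits was larger than that between the fractions for 22 genes (55%, against 55.7% of all genes).

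**Figure D2:**
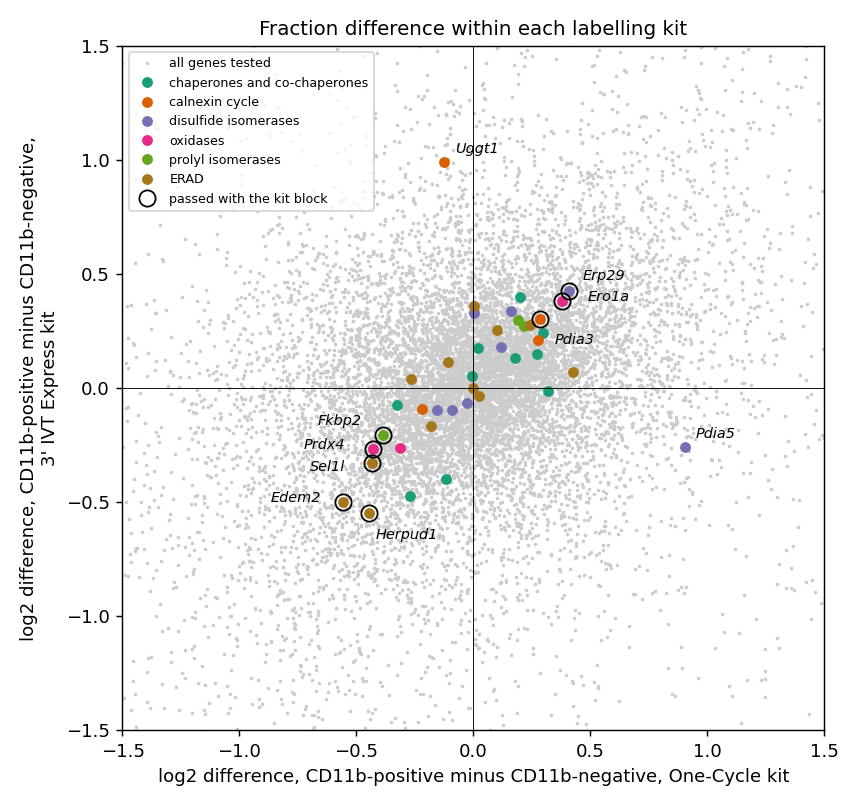
Log2 difference between the CD11b-positive and the CD11b-negative array prepared with the One-Cycle kit (horizontal axis) and with the 3' IVT Express kit (vertical axis). Coloured points are the 40 genes by role, grey points all genes tested (661 lie beyond the axes), and rings mark the 8 genes that passed with the kit block. The ringed genes lie near the diagonal, with Edem2 and Herpud1 lowest, while Uggt1 and Pdia5 differ between the kits.

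The lowest adjusted p-values with the block were those of the ERAD genes Edem2 and Herpud1. Of the 12 ERAD genes 3 passed as lower with the block and 0 as higher (4.14% and 3.73% of all genes). With both kits 4 were higher and 4 lower (31.6% and 30.5% of all genes), and the median log2 difference was -0.0025. Edem2, a mannosidase-like protein that starts the trimming by which misfolded glycoproteins are marked, had signals of 3002 and 3366 without CD11b against 2038 and 2384 with it (CD11b-negative arrays first and, within a fraction, the One-Cycle kit first, here and below). Both CD11b-positive arrays lay below both CD11b-negative ones. It was 1.44-fold lower, a log2 difference of -0.53 (standard error 0.086 with the block; adjusted p = 0.00013 with the block and 0.610 without), with -0.56 and -0.50 within the kits. Herpud1, a membrane protein of the ligase complex whose gene the unfolded protein response induces and whose promoter held the ERSE-II shown above, stood at 4793 and 3989 against 3513 and 2727. Its arrays did not overlap either, and it was 1.41-fold lower (log2 difference -0.50, standard error 0.083; adjusted p = 0.00016 with the block and 0.687 without), with -0.45 and -0.55 within the kits. Its other probe set gave -0.75. The other probe set of Edem2 gave -0.63, but it was dim, near the low-signal filter (18.8 and 12.95 against 9.9 and 8.3).

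Sel1l, the adaptor that carries substrates to the ligase Syvn1, had signals of 1474 and 2123 against 1090 and 1688. The kits differed more than the fractions, whose arrays overlapped, while the CD11b-positive array was the lower one in each kit (-0.43 and -0.33). It was 1.30-fold lower (adjusted p = 0.0092 with the block, 0.880 without), and its 4 other probe sets were lower too, from -0.20 to -0.61. Averaged over all 5 it was at -0.35 and did not pass (adjusted p = 0.065 with the block). Syvn1 itself, the ubiquitin ligase Hrd1, stood at 1480 and 1235 against 1229 and 1271, and its kits went opposite ways (-0.27 and 0.041). The log2 difference of Syvn1 was -0.11, and its other probe set gave 0.063. Derl3, a derlin of the ER membrane that is abundant in secretory cells, stood at 3661 and 3110 against 3228 and 2769 (-0.17, adjusted p = 0.249 with the block). The largest positive difference among ERAD genes was that of Ufd1, a cofactor of Vcp, at 273 and 202 against 323 and 246 (0.26, adjusted p = 0.326 with the block). Vcp, the ATPase, had a log2 difference of 0.0034, and Derl1 of -0.00094. Of the other ERAD genes, Derl2, Os9 and Nploc4 lay between 0.18 and 0.25, and Edem3 was at -0.0040; none of them passed.

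Of the 10 chaperones and co-chaperones, 0 passed in either direction (3.73% of all genes passed as higher and 4.14% as lower). With both kits 5 were higher and 3 lower (31.6% and 30.5% of all genes), and the median log2 difference was 0.13. Hsp90b1, the ER Hsp90 known as Grp94, had signals of 7202 and 6858 against 9000 and 6795. The CD11b-positive One-Cycle array stood above the other 3 arrays, which lay close together (log2 difference 0.15, with 0.32 and -0.013 within the kits; adjusted p = 0.320 with the block). Manf, a small ER protein that binds BiP and is also secreted, stood at 5344 and 4120 against 6056 and 4508 (0.16, adjusted p = 0.292 with the block). The largest difference was that of Dnajc10, a co-chaperone that also reduces disulfides, at 321 and 262 against 369 and 346 (0.30, adjusted p = 0.199 with the block). That probe set carries the platform's mark (_s or _x in its name) for possible cross-hybridisation; of the other 2, the brighter gave 0.048 and the dimmer 0.65. The lowest was that of Sil1, which exchanges the nucleotide of BiP, at 262 and 290.5 against 217 and 208 (-0.37, adjusted p = 0.132 with the block). Dnajc10 and Sil1 showed no overlap between the fractions. Among the J-domain partners of BiP, Dnajb11 was at 0.27, Dnajb9 at -0.26 and Dnajc3 at -0.20. For Dnajc3, 2 of the 4 other probe sets went the other way. Hyou1, the large Hsp70-like chaperone, was at 0.21 (-0.071 from its brightest probe set without that mark), Sdf2l1 at 0.10 and Creld2 at 0.022. Hyou1, Sdf2l1 and Creld2 differed more between the kits than between the fractions; Hyou1, for example, had signals of 1686 and 2037 with the One-Cycle kit and 918 and 1020 with the 3' IVT Express kit.

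In the calnexin cycle 1 of 4 genes passed as higher and 0 as lower (3.73% and 4.14% of all genes). Pdia3, the disulfide isomerase ERp57 that works with calnexin and calreticulin, had signals of 2541 and 2017 against 3098 and 2491. The fractions overlapped, but the CD11b-positive array was the higher one in each kit by a like amount (0.29 and 0.30). It was 1.23-fold higher (standard error of the log2 difference 0.087; adjusted p = 0.033 with the block and 0.877 without). Averaged with its other, dim probe set, the difference was 0.18 and did not pass (adjusted p = 0.537 with the block). Canx, the membrane lectin calnexin, stood at 2156 and 2527 against 2610 and 2923, with no overlap (0.24, adjusted p = 0.092 with the block). Its brightest probe set without the cross-hybridisation mark gave 0.39 and passed as higher (adjusted p = 0.030 with the block), while Pdia3 did not pass in that fit (0.052). Calr, the soluble lectin calreticulin, stood at 7906 and 5408 against 6795 and 5068 (-0.16, adjusted p = 0.280 with the block). Its 2 other probe sets, also bright, gave 0.0027 and -0.023. With its probe sets averaged Calr was at -0.059 (adjusted p = 0.797 with the block). Uggt1, which adds glucose back to unfolded glycoproteins, had signals of 218 and 91.2 against 199.9 and 184, and 1 array, CD11b-negative with the 3' IVT Express kit, stood apart from the other 3. Its log2 differences within the kits were -0.12 and 0.99.

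Among the 8 disulfide isomerases 1 passed as higher and 0 as lower (3.73% and 4.14% of all genes), with a median of 0.16. Erp29, a member of the family without the reactive cysteine pair, had signals of 340.0 and 299.7 against 452 and 404. Its arrays did not overlap, and it was 1.33-fold higher (log2 difference 0.42, standard error 0.13; adjusted p = 0.041 with the block and 0.783 without), with 0.41 and 0.43 within the kits. Txndc5, the isomerase with the brightest probe set, stood at 9033 and 8038 against 8492 and 7531 (-0.092, adjusted p = 0.575 with the block). Pdia6 stood at 3016 and 1968 against 3374 and 2487 (0.25, adjusted p = 0.084 with the block). P4hb, the archetypal protein disulfide isomerase, had the lowest difference, at 3304 and 2221 against 2962 and 2077 (-0.13). Pdia4, Txndc11 and Erp44 lay between -0.046 and 0.17. Pdia5, dim on all 4 arrays, went opposite ways in the kits (0.91 and -0.26).

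The oxidases and the peroxiredoxin went different ways. Ero1a, the widely expressed ER oxidase, had signals of 477 and 465 against 622 and 607. The 2 arrays of a fraction lay closer together than the fractions, and it was 1.30-fold higher (log2 difference 0.38, standard error 0.12; adjusted p = 0.039 with the block and 0.772 without), with 0.38 in each kit. The mean of its 3 probe sets was 0.26 and did not pass (adjusted p = 0.290 with the block). Ero1b, the second ER oxidase, prominent in secretory cells, stood at 689 and 531 against 554 and 442 (-0.29, adjusted p = 0.143 with the block), and it was 0.17 when its 3 probe sets were averaged, one of them dim. Prdx4, a peroxiredoxin that uses hydrogen peroxide to form disulfides, stood at 2164 and 2752 against 1605 and 2285. The CD11b-positive array was lower in each kit (-0.43 and -0.27), and it was 1.27-fold lower (standard error of the log2 difference 0.090; adjusted p = 0.013 with the block and 0.877 without). The mean of its 4 probe sets gave -0.18 (adjusted p = 0.496 with the block), and 1 of the other 3 went the other way.

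Of the prolyl isomerases, Fkbp2 stood at 2123 and 2295 against 1622 and 1987, with no overlap. It was 1.23-fold lower (log2 difference -0.30, standard error 0.091; adjusted p = 0.042 with the block and 0.837 without), and it passed in 0 of the 8 alternative fits with the block. Ppib, cyclophilin B, stood at 4470 and 4450 against 5193 and 5374, so that both CD11b-positive arrays were higher (0.24, adjusted p = 0.060 with the block). Fkbp11, an isomerase typical of secretory cells, stood at 436 and 458 against 497 and 565 (0.24, adjusted p = 0.252 with the block).

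**Figure D3:**
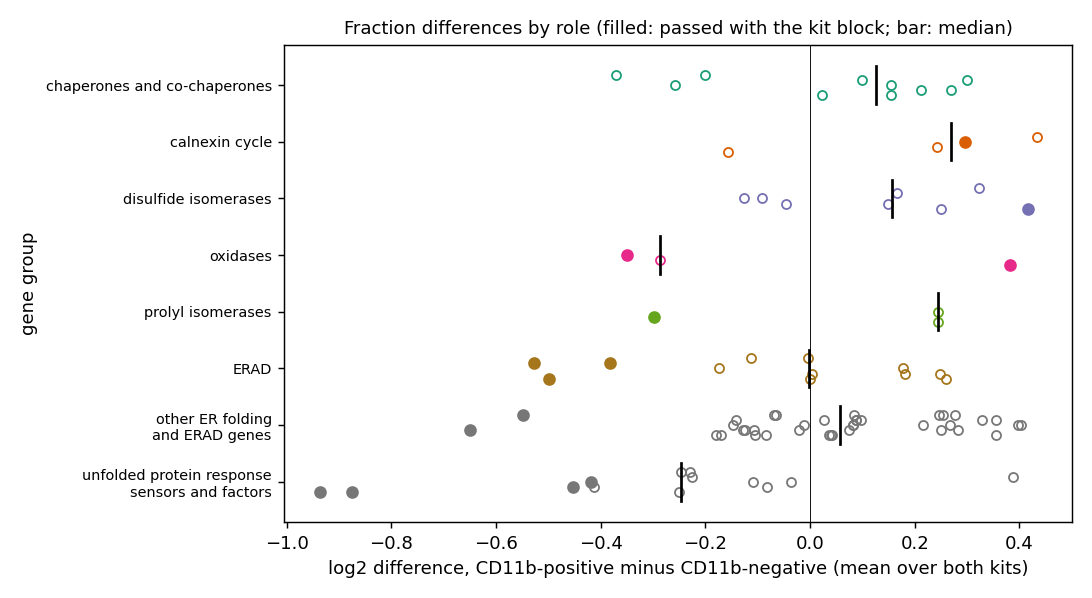
Log2 difference between the fractions (horizontal axis, mean over both kits) for each of the 40 genes by role and for the 2 lists of other pathway genes. Filled points passed with the kit block, open points did not, and bars mark medians. Filled points lie on both sides of 0 among the oxidases and only above 0 among calnexin-cycle genes and disulfide isomerases. They lie only below 0 in the other lists that hold any.

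With 1 array left out the kits are no longer balanced, and the values also carry some of the difference between kits. Erp29 then ran from 0.33 to 0.51, Ero1a from 0.36 to 0.40 and Edem2 from -0.65 to -0.41. Herpud1 was at -0.32 without CD11b-positive replicate 2 and between -0.69 and -0.36 without each of the others. Fkbp2 was at -0.15 without CD11b-positive replicate 1 and between -0.43 and -0.24 otherwise. Sel1l was at -0.64 and -0.12 without CD11b-negative replicates 1 and 2 and at -0.075 and -0.70 without CD11b-positive replicates 1 and 2. In the same order Prdx4 was at -0.52, -0.17, -0.093 and -0.60, and Pdia3 at 0.46, 0.12, 0.13 and 0.48. None of the 40 passed in these fits, which could not hold the block (at most 0.0157% of all genes higher, and 0.173% lower without CD11b-positive replicate 1 and 0.00788% without CD11b-positive replicate 2).

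How the arrays were scaled mattered most for the genes at the top of the range. Median log2 differences of all genes were 0.42 on the signals as deposited, 0.23 after median scaling, -0.047 where trimmed means were equalised and -0.0087 with cyclic loess, so values under these 4 scalings are given relative to that median. On that scale Edem2 ran from -0.53 to -0.41, Herpud1 from -0.55 to -0.43, Erp29 from 0.41 to 0.54 and Ero1a from 0.39 to 0.52. Edem2 and Herpud1 passed with the block under the trimmed mean (adjusted p = 0.0063 and 0.0042) and cyclic loess (0.0010 and 0.00066). Erp29, Ero1a and Pdia3 passed under the trimmed mean (0.032, 0.027 and 0.039) and not after cyclic loess (0.060, 0.053 and 0.082), while Sel1l and Prdx4 passed after cyclic loess (0.022 and 0.023) and not under the trimmed mean (0.069 and 0.072). Fkbp2 passed in neither (0.179 and 0.072). Txndc5 was lower by more than on quantile-normalized signals, at -0.42 to -0.31, and passed under both (0.024 and 0.0054); Calr was at -0.36 to -0.25 and passed after cyclic loess (0.025). Hsp90b1 was at 0.0011 on the deposited and median scales and turned to -0.021 and -0.11 under the other 2. The highest deposited signals, 12072 and 13778 against 10970 and 13711, were not higher with CD11b in either kit, although the trimmed means were.

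How many of the 40 genes passed varied with the processing, as did the share of all genes. The fits test each scale's own differences, not those relative to the median of all genes, so a gene at that median, such as Hsp90b1 or P4hb, counts as higher on the deposited scale. On the signals as deposited 27 were higher and 0 lower (28.9% and 1.22% of all genes), and after median scaling 24 and 0 (17.4% and 1.83%). With equal trimmed means 3 were higher and 3 lower (3.21% and 3.32%), and with cyclic loess 0 and 6 (2.83% and 3.68%). On quantile-normalized signals the counts were 0 and 3 without the low-signal filter (1.74% and 2.02%), 1 and 4 with a filter at the 70th percentile (4.69% and 5.38%), 1 and 2 with probe sets averaged (2.78% and 3.12%), and 3 and 4 without cross-hybridising probe sets (3.12% and 3.39%). Edem2 and Herpud1 passed as lower in 6 of these 8 fits, all but the deposited and median scales.

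**Figure D4:**
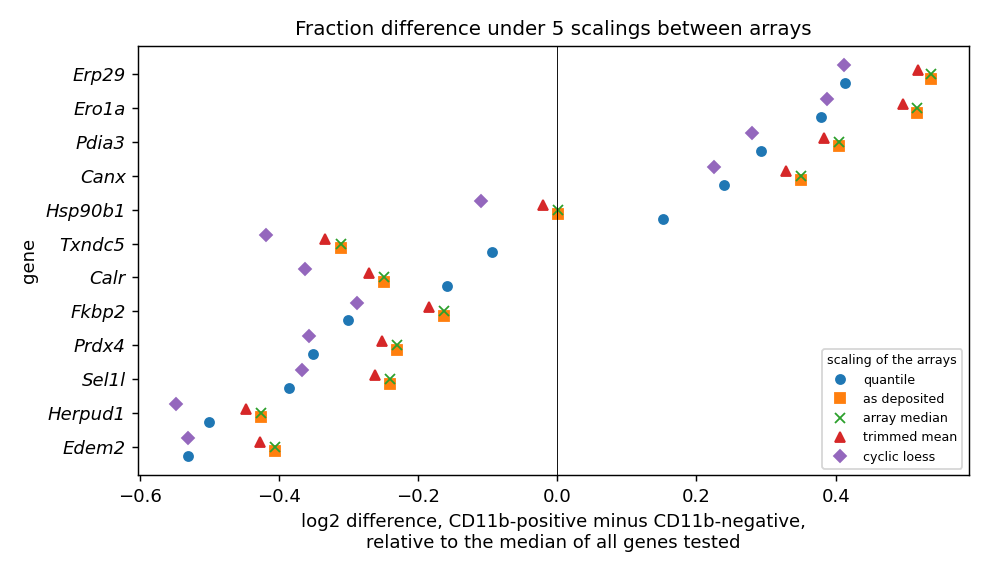
Log2 difference between the fractions relative to the median of all genes tested (horizontal axis) for the 8 genes that passed with the kit block and for Txndc5, Calr, Hsp90b1 and Canx, under 5 scalings of the arrays (symbols). On this relative scale the 8 genes keep their side of 0. Txndc5 and Calr lie further below 0, and Hsp90b1 lies near or below 0, under the 4 scalings other than quantile.

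Other genes of the pathway came from a list of 40 further folding and ERAD genes, of which 39 were on the array and 38 tested (Ppic lay below the low-signal filter). With the block 2 were lower and 0 higher (4.14% and 3.73% of all genes), and the median log2 difference was 0.058. Man1b1, the mannosidase that trims glycoproteins ahead of ERAD, stood at 589 and 388 against 352 and 303 (1.46-fold lower, adjusted p = 0.0069 with the block). Tmx4, a membrane-bound thioredoxin-like protein, stood at 377 and 427 against 221 and 294 (1.57-fold lower, adjusted p = 0.0019 with the block). Both had lower signals in both CD11b-positive arrays. With the block, Man1b1 and Tmx4 did not pass on the deposited scale (adjusted p = 0.997 and 0.717) or after median scaling (0.348 and 0.128). They passed under the trimmed mean (0.038 and 0.014) and cyclic loess (0.014 and 0.0045). Hspa5 stood at 7841 and 6259 against 8773 and 6316 (0.087, adjusted p = 0.616 with the block). Of 13 sensors and factors of the unfolded protein response 4 were lower and 0 higher with the block (4.14% and 3.73% of all genes). With both kits 10 were lower and 1 higher (30.5% and 31.6% of all genes), and the median was -0.25. Atf6, the sensor that is cleaved to a transcription factor, stood at 680 and 752 against 521 and 547 (1.34-fold lower, adjusted p = 0.017 with the block). Eif2ak3, the kinase PERK, stood at 1264 and 2365 against 1067 and 1492 (1.37-fold lower, adjusted p = 0.0045 with the block). Ppp1r15a, the phosphatase subunit that ends PERK signalling, was 1.91-fold lower (905 and 950 against 506 and 461; adjusted p = 1.4e-06 with the block) and Atf3 1.83-fold lower (0.00023); both are also on the immediate early list below. None of these genes passed without the block. With the block, none of the 4 passed on the deposited scale (adjusted p = 0.582 for Atf6, 0.630 for Eif2ak3, 0.116 for Ppp1r15a and 0.175 for Atf3). Atf6 and Eif2ak3 did not pass after median scaling (0.865 and 0.759) or with equal trimmed means either (0.089 and 0.081). Ern1 was at -0.11 and did not pass. Xbp1, the transcription factor made active by Ern1, was at -0.036 and did not pass on quantile-normalized signals; relative to the median of all genes it was at -0.35 with equal trimmed means and -0.43 with cyclic loess, and passed as lower under both (adjusted p = 0.016 and 0.0033 with the block).

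The 9 genes with an ERSE had a median log2 difference of -0.11, from -0.29 (Ero1b) to 0.25 (Pdia6). With both kits 2 were higher and 4 lower (31.6% and 30.5% of all genes). With the block 0 passed (3.73% of all genes passed as higher and 4.14% as lower). Over the 14 genes with any of the 3 motifs the range was -0.50 (Herpud1) to 0.27 (Dnajb11), with 4 higher and 6 lower with both kits and 1 passing.

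Some marker lists of other cells and states differed between the fractions, and their part in the differences of the 40 genes was not tested. For comparison with the counts below, 31.6% of all genes were higher and 30.5% lower with both kits. Itgam, the CD11b gene, had signals of 28.3 and 15.8 against 189 and 109. The 8 plasma cell markers were all tested; their summed signal was 50392 and 51761 against 48176 and 48665, and 7 were lower with both kits. Of 21 epithelial genes tested 18 were lower with both kits (summed signal 6550 and 7188 against 4096 and 3003). All 12 Paneth and goblet cell genes tested were lower with both kits (Spdef lay below the filter). Of 14 T and NK cell genes 10 were lower with both kits (6174 and 2363 against 3214 and 1676; Tcra below the filter). Of 14 macrophage, monocyte and dendritic cell genes 6 were higher and 3 lower (3652 and 3934 against 2621 and 2786; Cx3cr1, Mrc1, Cd163 and C1qa below the filter). Of 7 eosinophil, mast cell and neutrophil genes 1 was higher and 4 lower (376 and 287 against 287 and 201; Epx, Siglecf, Cma1, S100a8, S100a9 and Camp below the filter), and of 10 mature B cell genes 2 were higher and 2 lower (3708 and 3016 against 3520 and 3652). Of 23 genes of cycling cells 22 were higher (6294 and 4105 against 11229 and 8130), and of 16 immediate early genes 15 were lower (24923 and 21913 against 15522 and 11553). For the beta-actin control probe sets the 3' signal over the 5' signal, which rises as RNA shortens, was 1.90 and 1.84 against 1.43 and 1.61. The same ratio for Gapdh was 0.685 and 0.704 against 0.682 and 0.710.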

How the data were processed

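The deposited values are signal intensity on a linear scale, 1 per probe set; MAS5 and Affymetrix Expression Console are named in the submitters' processing notes, and the scaling target is not given in the sources used here. Array medians ran from 14.7 to 18.3. From these intensities 64 control probe sets were set aside, and the other 45037 were quantile-normalized. Log2 was taken after adding 3, which shrinks differences of dim genes. Genes whose mean lay above the 40th percentile (signal 9.51) were kept, each with its brightest probe set that the platform's table assigns to 1 gene. All 12645 were fitted with limma 3.58.1 (R 4.3.3; moderated with a trend, p-values adjusted by Benjamini-Hochberg), without and with labelling kit as a block (prior degrees of freedom 25.6). The label protocols give the kits, which pair the arrays; deviations of same-kit arrays correlated across genes (r = 0.388). The fits were tested on simulated data. Permuting 2 against 2 arrays exactly has a smallest p of 0.333 and was not used.

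The 40 genes and all lists were chosen with earlier results of these data known. Array values are given for the 2 brightest by rank and the highest and lowest difference in each role, and for every gene that passed; others are named to complete a role. A planned description of protein sequences was not made, as these were not used here.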

Additional observations from a re-analysis of the deposited data

How the results depend on the processing

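Without the block, 0 of the 40 genes passed in either direction under any alternative run, leaving out each array included (0 to 0). With the replicate block 3 were higher and 5 lower. With the block the counts were 27 and 0 on the deposited scale, 24 and 0 on the median scale, 3 and 3 with equal trimmed means, 0 and 6 with cyclic loess, 0 and 3 without the low-signal filter, 1 and 4 with the filter at the 70th percentile (39 genes tested, without Pdia5), 1 and 2 with probe sets averaged, and 3 and 4 without cross-hybridising probe sets. Of these 8 alternatives with the block, Edem2 and Herpud1 passed in 6, Erp29 in 5, Pdia3, Ero1a and Sel1l in 4, Prdx4 in 3 and Fkbp2 in 0. The block with the pseudocounts, without a trend or without an array was not run.

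The median log2 difference of the 40 genes, 0.12, was 0.031 after cyclic loess, 0.055 without cross-hybridising probe sets, 0.0040 with the One-Cycle kit alone and 0.061 with the 3' IVT Express kit alone, and ran from -0.038 to 0.15 on leaving out 1 array (-0.0081 and -0.038 without, in turn, CD11b-positive replicate 1 or CD11b-negative replicate 2); the cause was not tested. Under the other 4 scalings 4 or 5 of the 40 turned sign (Hsp90b1, at 0.15, had the largest difference among them), and 5 to 8 did on leaving out 1 array. The median of the genes' mean ranks, 519.9, was 615 without cross-hybridising probe sets and 3330 with probe sets averaged, dim ones included.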
